A study of Mus musculus with 6 samples.

Results

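Bone marrow cultured with GM-CSF is grown to give dendritic cells (DCs), and granulocytes remain among the cells in suspension. The neutrophil-like cells of the 3 DC cultures are described here. A barcode was kept with 300 or more genes, fewer than 100000 unique molecular identifiers (UMIs) and less than 10% of its UMIs from mitochondrial genes. A kept barcode was a member when S100a8 and S100a9 together made up at least 2% of its UMIs, when it held at least 1 UMI of Csf3r or Mmp9, and when it held 0 UMIs of the primary granule genes Elane, Prtn3 and Mpo. This rule chose 497 of the 24051 kept cells of the DC cultures, in a series of 35083 kept cells. There were 206 members in untreated DCs, 247 in VD3 DCs and 44 in Ndrg2-KO DCs. The members were thus chosen by their measured counts of S100a8, S100a9, Csf3r, Mmp9, Elane, Prtn3 and Mpo, and the levels of these genes are given as a description and support nothing.

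Neutrophils are short-lived phagocytes that carry their antimicrobial proteins in granules, which form in a fixed order while the cell matures. Primary granule proteins such as elastase and myeloperoxidase are transcribed at the promyelocyte stage, secondary granule proteins such as lactoferrin and lipocalin 2 at the myelocyte and metamyelocyte stages, and gelatinase later still. The mature cell then relies on surface receptors, among them the receptor for G-CSF (Csf3r), chemokine receptors and formyl peptide receptors, and S100A8 and S100A9 pair in its cytoplasm as calprotectin.

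Single cells were captured with 3′ chemistry of 10X Genomics, in 1 library per condition. No difference between conditions therefore has a replicate check, and no test was made. All 3 cultures came from the bone marrow of wild-type C57BL/6 mice. VD3 DCs received vitamin D3 (VD3) at 1e-06 M for 24 h from culture day 7. Ndrg2-KO DCs were nucleofected with Cas9 and 3 guides against Ndrg2, and untreated DCs received neither the agent nor, by their labels, a nucleofection, so that nucleofection and the knockout cannot be told apart. The libraries of the cultures hold their floating fraction, without the cells attached to the dish. For comparison the same rule was applied to 3 libraries of excisional mouse wounds explanted on day 10, which had received a hydrogel with control DCs (untreated by their labels, nucleofected with non-targeting guides by the study's methods), a hydrogel with Ndrg2-KO DCs or a blank hydrogel. Values for cultures are given in the order untreated, VD3 and Ndrg2-KO, and those for wounds in the order control DC, Ndrg2-KO DC and blank hydrogel. Levels are UMIs of a gene per 1000000 UMIs (CPM) summed over the members of a library. They measure the 3′ ends of transcripts, so they do not depend on transcript length. Intervals are exact 95% intervals, or normal 95% intervals for a difference of 2 log2 ratios, and cover counting error only. In such sums, fewer members with a transcript and less of it per member cannot be told apart, so the number of members with a UMI is given where a result turns on it.

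The members were shallow cells. Their median UMIs were 3044, 3269 and 3590 against 16094, 12351 and 16393 in the other kept cells of the same library, and their median numbers of genes were 1352, 1464 and 1497. Mitochondrial UMIs had medians of 3.15%, 3.55% and 5.06% in the members and 5.33%, 5.63% and 6.60% in the other cells. The summed depth over members was 1191768, 1243168 and 243892 UMIs, so the Ndrg2-KO values rest on the least counts. One Ndrg2-KO member with 38002 UMIs alone held 15.6% of the UMIs of its group. Pairs of DC libraries shared 11 to 19 kept barcodes. No barcode was a member in more than 1 DC library, and 2 barcodes were members in both the VD3 DC and the blank hydrogel library. Doublets were not removed: of the members, 6, 9 and 2 were among the highest 6% of doublet scores of their library. Ndrg2 itself could not be checked in the members, which held 1, 2 and 0 UMIs of it. In the other cells it was counted at 4.66, 1.41 and 0.886 CPM, and a 3′ count does not see an indel.

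The members took up 2.84% of untreated DCs (2.47% to 3.25%), 2.80% of VD3 DCs (2.46% to 3.16%) and 0.552% of Ndrg2-KO DCs (0.401% to 0.741%). The intervals of untreated and VD3 DCs overlapped, and that of Ndrg2-KO DCs lay below both. Because the rule asks for a UMI of a low gene and for none of 3 others, it depends on depth. When every kept cell was drawn down to 1000 UMIs and the rule applied again, the share was 1.54% (111 of 7195), 1.77% (150 of 8489) and 0.555% (44 of 7935), and 62, 336 and 34 shallower cells were left out. Ndrg2-KO DCs remained lowest, with an upper bound of 0.744% against a lower bound of 1.27% in untreated DCs. Among all kept cells, 603, 710 and 67 had S100a8 and S100a9 at 2% or more of their UMIs (8.31%, 8.05% and 0.841%), a part of the rule that is given as a description. Of these cells, 171, 204 and 19 held a primary granule UMI, and 226, 259 and 4 held neither such a UMI nor one of Csf3r or Mmp9. The rule was met by a further 9, 11 and 0 barcodes that the cell filter had left out.

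**Figure D1:**
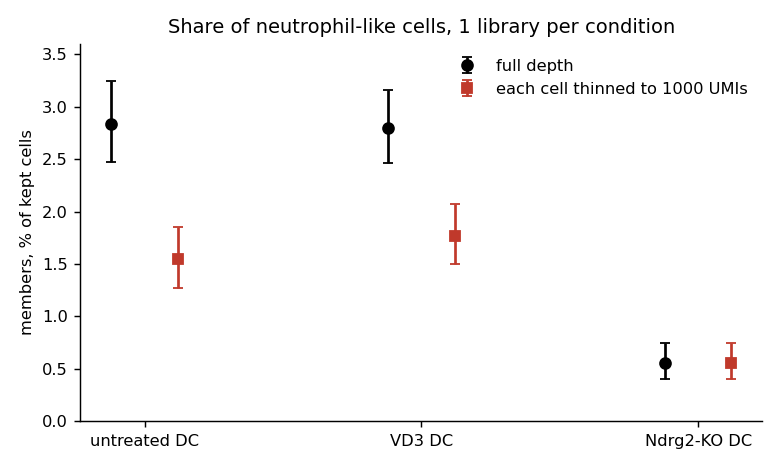
Share of neutrophil-like cells among the kept cells of each DC library (y axis, percent), at full depth (black circles) and after each cell was drawn down to 1000 UMIs (red squares), with exact 95% intervals for counting error. The Ndrg2-KO share is 0.552% at full depth and 0.555% after thinning, below the intervals of the other two libraries both ways.

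The values that chose the members were spread widely. S100a8 and S100a9 made up 2.02% to 31.2% of a member's UMIs in untreated DCs (median 6.30%), 2.03% to 31.7% in VD3 DCs (median 5.63%) and 2.03% to 23.4% in Ndrg2-KO DCs (median 5.74%). Just inside the threshold, from 2% to 2.5%, lay 23, 32 and 6 members, and just outside it, from 1.5% to 2%, lay 28, 36 and 7 cells that met the rest of the rule. The nearest of those outside were at 1.97%, 1.99% and 1.97%. The receptor part of the rule was met in different ways in the 3 libraries. Csf3r alone admitted 80, 23 and 0 members, Mmp9 alone 61, 154 and 33, and both genes were present in 65, 70 and 11. An Mmp9 UMI was also present in 4.31%, 7.27% and 11.1% of the kept cells with low S100a8 and S100a9, and a Csf3r UMI in 6.54%, 5.11% and 4.38% of them. The Ndrg2-KO members were therefore admitted mostly through Mmp9, which was at 5.59, 12.5 and 29.7 CPM in the other cells of the 3 cultures.

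The label of these cells was checked against their markers. All 5 markers given for it, S100a8, S100a9, Csf3r, Mmp9 and Stfa3, were at least 2-fold higher in members than in the other cells of each library, but the first 4 had been used to choose the members. Stfa3 was found in few of them (14, 24 and 9 members with a UMI) at 189.6, 296 and 226 CPM, against 3.61, 3.63 and 1.26 CPM in the other cells. Among all 3434 genes with at least 100 UMIs over the members, 211 (6.14%) were at least 2-fold higher in members than in other cells in all 3 libraries, and 51 (1.49%) were at least 2-fold lower. The 15 genes with the highest smallest ratio were Olfm4, Stfa2, Stfa3, Cd177, Ltf, Mmp9, Ceacam10, S100a8, Stfa2l1, Csf3r, Lcn2, S100a9, Camp, Fpr1 and Pglyrp1. Of these, S100a8, S100a9, Csf3r and Mmp9 had been used by the rule, so their place here and among the 211 is no check of the label. Most of the others are known granule, surface or protease inhibitor genes of granulocytes. Olfm4, which marks a subset of neutrophils, led the order at 60.4, 116 and 119 CPM in members and 0.715, 1.29 and 0.112 CPM in other cells, with 12, 31 and 6 members holding a UMI of it.

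Markers of other cell types were mostly lower in members than in the other cells, with the eosinophil list in Ndrg2-KO members as an exception. The summed level of 7 MHC class II genes was 1494, 1728 and 2075 CPM in members, which was 14.0%, 19.7% and 32.6% of that in the other cells. Cd74, the MHC class II invariant chain, was at 1021, 1151 and 1468 CPM, of which the single member with the most Cd74 UMIs held 38.3%, 28.4% and 61.7%. The 8 mature DC genes summed to 19.2%, 16.05% and 62.4% of the level in the other cells, and the 11 monocyte and macrophage genes to 31.5%, 44.6% and 27.7%. The last of these rests on the deepest Ndrg2-KO member, without which it was 7.29%. Without the same member the MHC class II sum of the Ndrg2-KO members was 24.5% of that in the other cells. Their mature DC sum was then 72.8%. Of 7 basophil and mast cell genes, 6, 5 and 7 were at 0. All 4 erythroid genes and all 5 fibroblast and keratinocyte genes were at 0 in members of the 3 cultures, and of 5 lymphocyte genes 4, 4 and 5 were. For the 8 eosinophil genes the sum was 62.9, 25.7 and 291 CPM in members and 91.6, 36.6 and 264 CPM in the other cells, and 4, 5 and 5 of them were at 0 in members. Those counted included Siglecf at 32.7, 13.7 and 65.6 CPM and Ear2 at 26.9, 8.85 and 213 CPM, both highest in the Ndrg2-KO members.

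Secondary granule genes were higher in the members than in the pool of all other kept cells. Of the 11 genes on this list, 10 were at least 2-fold higher in members than in other cells of all 3 libraries, against 6.14% of all genes tested. Lcn2, the siderophore-binding lipocalin, was at 3416, 4634 and 2497 CPM in members and 106, 216 and 12.8 CPM in other cells. After each cell was drawn to 1000 UMIs it was seen in 53.7%, 63.3% and 69.0% of members and 5.91%, 7.48% and 1.18% of other cells, at the same depth. Chil3, the chitinase-like protein Ym1, was the highest of the list at 8836, 6606 and 6699.7 CPM. This level was shared by the cells that had S100a8 and S100a9 at 2% or more but were not members: in untreated DCs Chil3 was at 7847 CPM in those with a primary granule UMI and 10213 CPM in those without it or a receptor UMI. Ngp, a neutrophilic granule protein of the cystatin family, reached 2752, 3280.3 and 180.4 CPM, Ltf (lactoferrin) 482, 589 and 65.6 CPM and Camp (cathelicidin) 461, 701 and 164 CPM, but these 3 were held by few members, with a Ngp UMI in 47, 68 and 10, a Ltf UMI in 42, 50 and 6 and a Camp UMI in 19, 24 and 4 of them. One member alone held 30.9%, 51.5% and 45.0% of the Camp UMIs. In the 2 kinds of untreated cells just named that were not members, Camp was at 415 and 127 CPM. The exception of the list was Anxa1, which was at 332, 556 and 627 CPM in members and 323, 153 and 784 CPM in other cells.

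Granule genes are known targets of C/EBP factors, and the promoters of the genes named here were searched for a C/EBP-type core, TTGCNNAA on either strand, in 250 bases before to 50 bases after the gene start. This pattern was found in the promoters of 3298 of 27025 genes (12.2%). It was found in 4 of the 9 secondary granule genes with a promoter searched, in 4 of 6 tertiary granule genes and in 3 of 14 of the 15 leading genes. S100a9, used by the rule, was 1 of those 3. The pattern was also found in 1 of 10 transcription factors, 1 of 17 cytokines and none of 3 NADPH oxidase genes. Of the secondary granule genes with a match, Anxa1 is the one that was not higher in the members of all libraries. The matches of the others, Ngp, Ltf and Lcn2, of the collagenase gene Mmp8 and of S100a9 are shown, since their levels are followed through the cultures below. Capitals mark the matched bases, the sequences are RefSeq's for GRCm38.p6, and each is written 5′ to 3′ on the strand of its gene.
Ngp, chr9:110419660-110419687, plus strand: tcctggtttaTTGCCCAAacctccttgc
Ngp, chr9:110419787-110419814, plus strand: ccggcagttcTTGGGCAAggcagtctca
Ltf, chr9:111019207-111019234, plus strand: ggcaggcctaTTGGGCAAtagggtgggg
Lcn2, chr2:32387938-32387965, minus strand: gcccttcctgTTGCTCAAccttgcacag
Mmp8, chr9:7558400-7558427, plus strand: taggcagaagTTGCTCAAgatgtagctt
S100a9, chr3:90695940-90695967, minus strand: gtaggctgtcTTGCTTAAgatttgggcg
A match is a description of these letters, not a bound site, and no binding was measured. Ngp held 2 matches.

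Later granule and protease inhibitor genes were present as well. Of 6 tertiary granule and gelatinase genes tested, 4 were at least 2-fold higher in members of all 3 libraries, Mmp9 among them, which the rule had used. Mmp8 (neutrophil collagenase) was at 566, 1005 and 385 CPM in members, but in other cells it ranged from 109 CPM in VD3 DCs to 430.2 CPM in Ndrg2-KO DCs, which was above the members of that library. Slpi, an inhibitor of neutrophil serine proteases, was at 535, 759 and 65.6 CPM in 164, 200 and 10 members. Padi4, the histone-citrullinating enzyme, was at 59.6, 71.6 and 123 CPM against 5.21, 5.61 and 2.79 CPM in other cells. The stefin A genes encode inhibitors of cysteine proteases and lie in a cluster of near-identical copies, so counts may have been split among them. Of 8 stefin genes tested, 6 were at least 2-fold higher in members of all 3 libraries, led by Gm5483 at 1821, 3301 and 569.9 CPM, Stfa2 at 375, 919 and 213 CPM and Stfa2l1 at 547, 968 and 279 CPM. Each was held by a minority of members, for example Gm5483 by 62, 115 and 20. In untreated DCs these levels were partly shared by cells with S100a8 and S100a9 at 2% or more that were not members. Gm5483 was at 1408 CPM in those with a primary granule UMI and 1655 CPM in those without it or a receptor UMI. In the same order Stfa2l1 was at 393 and 487 CPM and Stfa2 at 105 and 120 CPM.

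Among 20 surface receptors tested, 9 were at least 2-fold higher in members of all 3 libraries, including Csf3r, which the rule had used. The chemokine receptor Cxcr2 was at 124, 103 and 123 CPM in members and 5.38, 10.47 and 0.572 CPM in other cells, and at 1000 UMIs it was seen in 13.7%, 10.4% and 14.3% of members against 1.10%, 1.38% and 0.0887% of other cells. Fpr1 and Fpr2, receptors for formylated bacterial peptides, were at 166, 198 and 217 CPM and 218, 289 and 303 CPM. Il1r2, a decoy receptor for interleukin 1, was at 221, 424 and 82.0 CPM and was lowest in the Ndrg2-KO members. The integrin chains Itgam and Itgb2, which pair as Mac-1, were at 383, 476 and 582 CPM and 276, 334 and 476 CPM and were shared with the other cells. Of 6 NADPH oxidase genes, 2 were at least 2-fold higher in members of all 3 libraries, Ncf1 (p47phox) and Ncf4 (p40phox), at 439.7, 539 and 533 CPM and 227, 388 and 197 CPM. Of 10 transcription factors tested 4 were, among them Cebpe, which acts in late granulocyte differentiation, at 91.5, 158 and 172 CPM in members and 15.3, 15.9 and 24.9 CPM in other cells. In untreated DCs Cebpe was higher, at 137 CPM, in the cells with S100a8 and S100a9 at 2% or more and a primary granule UMI. For glycolysis 1 of 11 genes was higher, and for the cell cycle list and the GM-CSF receptor and survival list it was none of 6 and none of 12.

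**Figure D2:**
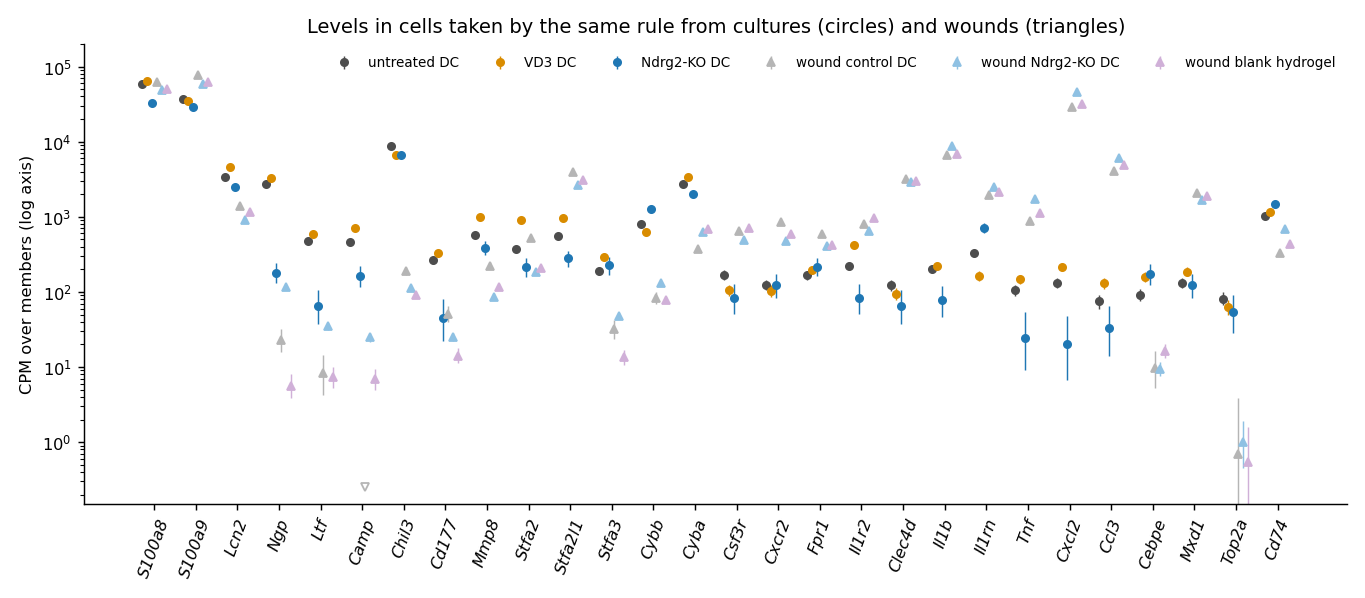
Level of the plotted genes (x axis) in CPM on a log axis (y axis) over the neutrophil-like cells of the 3 cultures (circles) and of the cells taken by the same rule from the 3 wounds (triangles), with 95% Poisson intervals. Camp had 0 UMIs in the control DC wound and is drawn as an open triangle at the bottom. Ngp and Chil3 are higher in each culture than in each wound, and Cxcl2 and Il1b higher in each wound. Ngp of the Ndrg2-KO members is within 2-fold of that in the wound with Ndrg2-KO DCs.

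The members were not uniform, and much of the variation followed their depth. Members of each library were divided into 4 groups of about equal size by UMIs, with median UMIs of 1587, 2386.5, 4379 and 12416 in untreated DCs. From the shallowest to the deepest group of untreated members, Ngp was at 12.3, 0, 1397 and 3976 CPM, Camp at 0, 0, 78.3 and 718 CPM and Chil3 at 1167, 2867, 9334 and 10552.5 CPM. All 3 were highest in the deepest group. Stmn1, which is expressed in cycling cells, went the same way at 0, 23.4, 45.3 and 261 CPM. Other genes were highest in the shallow members: Il1b, the cytokine, at 577, 506, 396 and 47.3 CPM, Slpi at 1843, 1480.3, 602 and 206 CPM, the leukocyte gene Lst1 at 2027, 1823, 692 and 141 CPM and Cxcr2 at 270.2, 203, 136 and 90.6 CPM. Each of these 4 genes was lowest in the deepest group. Csf3r followed the same order (663, 444, 218 and 50.04 CPM), but the rule asks for a UMI of Csf3r or Mmp9, and 1 UMI is a larger part of a shallow cell.

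In VD3 members Ngp and Lst1 again went in opposite directions. Ngp was at 65.9, 406, 2811 and 4703 CPM from the shallowest to the deepest group and Lst1 at 1365, 1289, 511 and 120.4 CPM. The order was less regular for Camp (0, 249.7, 169 and 1145 CPM) and Cxcr2 (132, 134, 109 and 88.1 CPM). In the 44 Ndrg2-KO members, with 11 to a group, Ngp was low in every group (310.2, 85.6, 497 and 71.8 CPM) and did not follow depth, while Lst1 was again highest in the shallowest group (1137, 770.1, 477 and 201 CPM). Spearman's rho between a member's UMIs and the share of its UMIs from Ltf, Camp and Ngp was 0.64 over 206, 0.61 over 247 and -0.13 over 44 cells, each within 1 library, which shares its source.

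**Figure D3:**
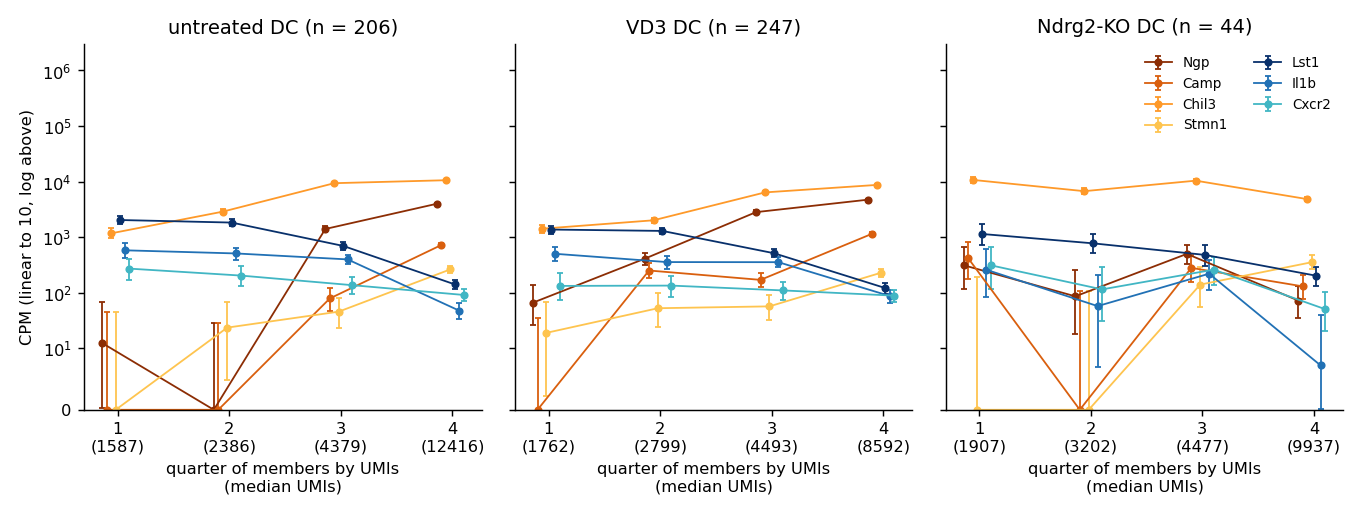
Level of 7 genes (y axis, CPM, linear up to 10 and logarithmic above) in 4 groups of members ordered by UMIs per cell (x axis, median UMIs in parentheses) for each DC library, with 95% Poisson intervals. In untreated and VD3 members Ngp, Camp, Chil3 and Stmn1 are highest in the deepest group and Lst1, Il1b and Cxcr2 lowest there; in the 44 Ndrg2-KO members the granule genes do not follow depth.

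A few members carried most of the UMIs of Ltf, Camp and Ngp. Ltf, Camp and Ngp together reached 0.5% of the UMIs in 17, 29 and 1 members (8.25%, 11.7% and 2.27%), a limit chosen after the values were seen, while 149, 170 and 32 members held no UMI of the 3 genes. Near the limit, from 0.25% to 0.5%, lay 5, 12 and 3 members, and from 0.5% to 1% lay 4, 6 and 1. The members at or above the limit held 88.7%, 90.2% and 54.5% of all Ngp UMIs of their library's members. In untreated DCs they had S100a8 at 107418 CPM against 50334 CPM in the rest, Lcn2 at 13375 against 1651 CPM, Chil3, which was spread over more members, at 13687 against 7976 CPM, Cebpe at 289.8 against 56.3 CPM and Il1b at 66.9 against 228 CPM. Both libraries with more than 1 such cell gave this order, with Il1b in VD3 DCs at 32.8 against 258 CPM. Their median UMIs were higher than those of the other members, at 8214 against 2847 in untreated and 6668 against 3069.5 in VD3 DCs. Drawn to 1000 UMIs, 17.6%, 22.9% and 14.3% of members still showed a UMI of Ltf, Camp or Ngp, and 8.29%, 5% and 11.9% one of the cycling cell genes Mki67 or Top2a. At the same depth the shares among the other cells were 1.502%, 1.65% and 0.215% for Ltf, Camp or Ngp and 12.1%, 9.65% and 6.82% for Mki67 or Top2a.

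The balance between the partners of calprotectin was not used by the rule, which took their sum. S100a9 made up a median of 21.5% of the S100a8 and S100a9 UMIs of an untreated member (interquartile range 7.96% to 37.9%), 26.5% of a VD3 member (6.85% to 39.4%) and 46.6% of a Ndrg2-KO member (32.5% to 53.0%). In cells taken by the same rule from wounds the medians were 55.4%, 55.6% and 55.2%. The culture members were thus spread from cells almost without S100a9 to cells with about equal counts, whereas the wound cells were not. No S100a9 UMI at all was counted in 22 of 206 untreated and 28 of 247 VD3 members, although these cells held 34 to 175 (median 70.5) and 29 to 187 (median 76.0) UMIs of S100a8. None of the 44 Ndrg2-KO members and none of the 3599 wound cells lacked S100a9, and no member of any library lacked S100a8. S100a9 lay under 20% of the sum in 98, 103 and 6 members and in 4, 16 and 5 of the wound cells (1.16%, 0.788% and 0.409%).

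Members on either side of 20%, a limit chosen after the values were seen, differed in other genes. In untreated DCs those under it were shallower (median 2577 against 5855 UMIs), and had more Il1b (426 against 107 CPM), Lst1 (1149.9 against 307 CPM) and Apoe (677 against 94.0 CPM). Those at or over it had more of the granule gene Ngp (3669.9 against 647 CPM), of Stmn1 (236 against 30.4 CPM) and of Cd177 (357 against 60.8 CPM). VD3 members showed the same directions, for example Il1b at 373 against 154 CPM and Ngp at 1692 against 3959.9 CPM. Only 6 Ndrg2-KO members lay under the limit, with 14 UMIs of Lst1, 3 of Stmn1 and 0 of Cd177, too few to show a direction. Their Apoe was at 1476 against 347 CPM, the direction of the other cultures, and their Il1b at 79.8 against 77.7 CPM. Ngp was at 957 CPM in these 6 against 91.4 CPM in the 38 others. All Ngp UMIs of the 6 were in 1 cell, so this direction rests on that cell. The part of depth in these differences was not tested. Spearman's rho between the S100a9 proportion and a member's UMIs was 0.45, 0.35 and -0.04 over the cells of the 3 libraries.

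**Figure D4:**
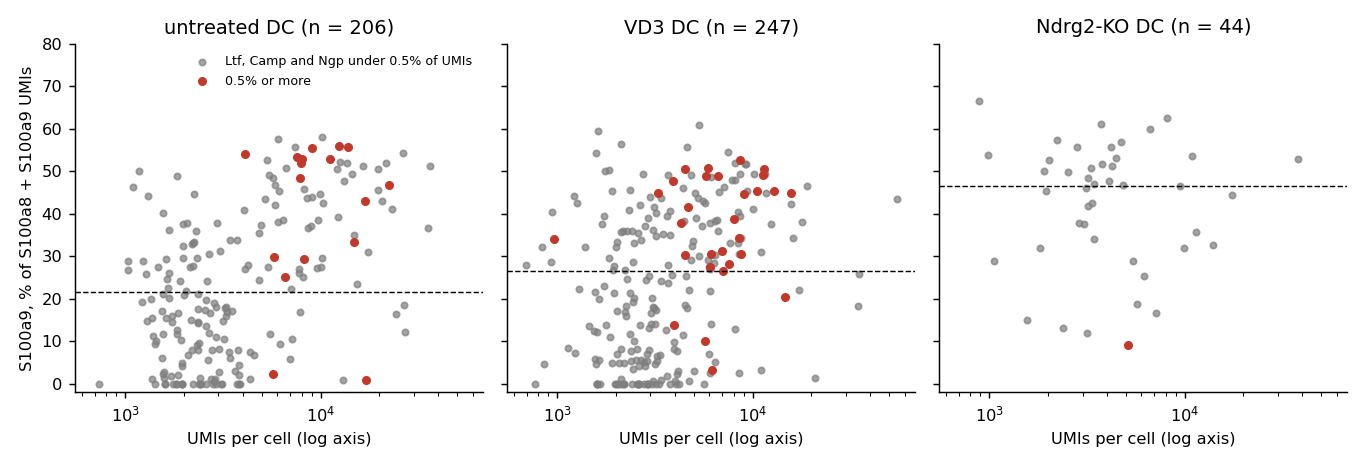
S100a9 as a percentage of the S100a8 and S100a9 UMIs of each neutrophil-like cell (y axis) against its total UMIs (x axis, log scale) in the 3 DC libraries, 1 point per cell, with the median as a dashed line. Red points are cells in which Ltf, Camp and Ngp make up 0.5% of UMIs or more; points at 0 are the 22 untreated and 28 VD3 members without a S100a9 UMI, and the Ndrg2-KO panel has none.

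The first comparison between cultures asked how 24 h of VD3, which makes DCs tolerogenic, changed the neutrophil-like cells. Cyp24a1, the vitamin D 24-hydroxylase that the vitamin D receptor induces, was counted with 0 UMIs in untreated members and at 110.2 CPM in 28 of 247 VD3 members, at least 43.8-fold higher when 3 UMIs stand for the 0 over the untreated group. It was also absent from Ndrg2-KO members, and in the other VD3 cells it was at 317 CPM. At 1000 UMIs a Cyp24a1 UMI was seen in 5.42% of VD3 members and 16.5% of the other VD3 cells. The receptor gene Vdr was low in members, at 14.3, 34.6 and 49.2 CPM.

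Of 3155 genes that reached 100 UMIs in the summed members of both libraries, 92 (2.92%) differed at least 2-fold, of which 45 (1.43%) were higher and 47 (1.49%) lower in VD3 members. The median log2 ratio over all of them was 0.00. In the other cells of the culture, 20 of the 45 were also at least 2-fold higher and 27 of the 47 also at least 2-fold lower. The 10 largest increases among genes with at least 200 UMIs were those of Stfa1, Acpp, Ccl17, Mmp9, Ifitm3, Ehd1, Crip1, Stfa2, Socs2 and Pglyrp1. Acpp, an acid phosphatase, was found in 50 untreated members at 63.8 CPM and in 126 VD3 members at 286 CPM, a log2 ratio of 2.17 (1.81 to 2.54). Pglyrp1, a peptidoglycan-binding granule protein, was at 484 and 1134 CPM, a log2 ratio of 1.23 (1.09 to 1.37) against 0.60 in the other cells. Ehd1, a regulator of endocytic recycling, was at 169 and 443 CPM, a log2 ratio of 1.39 (1.16 to 1.63) against 0.70 in the other cells. These 3 differences were carried by many members, and without the cell with the most UMIs of the gene in each library the log2 ratios were 2.18, 1.24 and 1.38. Stfa1 and Ccl17 were not of this kind: 1 untreated member held 65.9% of its library's Stfa1 UMIs, and 1 VD3 member held 57.8% of those of the chemokine gene Ccl17. Their log2 ratios were 2.45 and 1.79 with and 3.46 and 1.78 without such cells. Ccl17 was lower in VD3 than in untreated members when the limit on S100a8 and S100a9 was 1% of UMIs (log2 ratio -1.54) and when only cells with under 5% mitochondrial UMIs were taken (-0.63), and Stfa1 was lower when cells with primary granule UMIs were admitted (-0.26).

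The largest decreases included those of Mmp12, Apoe, Lpl, S100a4, Ass1, Fabp5, Gal, Vim and Ybx3. Apoe, the lipid carrier of macrophages, was found in 42 untreated members at 271 CPM and in 13 VD3 members at 22.5 CPM, a log2 ratio of -3.59 (-4.20 to -3.03) against -1.43 in the other cells. Lpl, lipoprotein lipase, was at 797 and 149.6 CPM, a log2 ratio of -2.41 (-2.65 to -2.19) against -1.75 in the other cells. S100a4 was at 593 and 183 CPM and Mmp12, the macrophage elastase, at 193 and 12.1 CPM. Apoe, Lpl and Mmp12 are known as genes of macrophages and lipid handling. In the other cells the log2 ratios of S100a4 and Mmp12 were -1.99 and -4.15, the same direction as in the members, and the part of transcripts from other cells in the members' values was not tested. Ccr2, the monocyte chemokine receptor, fell under the limit of 100 UMIs and was seen in 20 untreated members and 1 VD3 member, while in the other cells it was at 319.9, 0.686 and 549 CPM.

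Of 11 secondary granule genes 1 (Ifitm6) was at least 2-fold higher and 0 lower, against 1.43% and 1.49% of all genes, with a median log2 ratio of 0.29 over the list. Ngp had a log2 ratio of 0.25 (0.19 to 0.32), Lcn2 one of 0.44 (0.38 to 0.50) and Chil3 one of -0.42 (-0.46 to -0.38). Of 5 tertiary granule genes, Mmp9 alone was at least 2-fold higher. Since a Mmp9 UMI admits a cell to the members, its level of 232 and 658 CPM is a description, and in the other cells it was at 5.59 and 12.5 CPM. Of 8 stefin genes 2 were at least 2-fold higher, Stfa1 and Stfa2. Of 20 surface receptors 2 were, among them Trem1, an amplifier of inflammatory signals. None of 6 NADPH oxidase genes, 9 transcription factors, 11 glycolysis genes, 6 immediate early and stress genes or 6 cell cycle genes reached a 2-fold difference in either direction. Of 8 S100 genes S100a4 and S100a10 were at least 2-fold lower, and of 2 interferon response genes tested both, Ifitm1 and Ifitm3, were at least 2-fold higher. For Ifitm3, which restricts viral entry, the members' log2 ratio of 1.47 lay below that of the other cells, 2.57. Of 11 cytokine genes Ccl17 alone was at least 2-fold higher, and of 12 genes of the GM-CSF receptor and survival list 1 was. Of the lists for other cells, MHC class II had 1 of 5 higher (H2-Ab1, lower under 4 other ways of choosing the cells), mature DC 2 of 7 higher (Il4i1 and Socs2) and 1 lower (Ccl5, with a log2 ratio of 0.65 when no receptor UMI was required), and monocyte and macrophage 2 of 5 lower (Fn1 and Mmp12).

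The second comparison asked how the neutrophil-like cells of the Ndrg2-KO culture differed from those of the untreated culture. Of 1988 genes that reached 100 UMIs in both together, 199 (10%) differed at least 2-fold, 79 (3.97%) of them higher and 120 (6.04%) lower in the 44 Ndrg2-KO members. The median log2 ratio was -0.06 here. In the other cells 32 of the 79 and 45 of the 120 passed the same limit in the same direction. Leaving out, for each gene, the cell with the most UMIs in each library kept 43 of the 79 increases and 117 of the 120 decreases, against 42 of 44 and 46 of 47 in VD3 members, where Cyp24a1, at 0 in untreated members, was not counted. The top cell is 1 of 44 here and 1 of 206 in untreated DCs, so its removal lowers the Ndrg2-KO value more.

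The 10 largest increases were those of Chil1, Fn1, Wfdc17, Mmp12, Gda, Mmp9, Ccl5, Cap1, Ccl17 and Anxa4. Chil1, a secreted chitinase-like protein, was found in 34 of 206 untreated members at 42.0 CPM and in 41 of 44 Ndrg2-KO members at 697 CPM, a log2 ratio of 4.05 (3.59 to 4.54). In the other cells it was at 1.61, 8.70 and 50.2 CPM, a log2 ratio of 4.96 between the same cultures. At 1000 UMIs a Chil1 UMI was seen in 6.83%, 7.08% and 47.6% of members and 0.515%, 1.08% and 5.09% of other cells. Gda, guanine deaminase, was at 95.7 and 681 CPM, a log2 ratio of 2.83 (2.48 to 3.19) against 1.68 in the other cells. Cap1, a regulator of actin turnover, was at 132 and 467 CPM, a log2 ratio of 1.83 (1.47 to 2.18). These increases were carried by many cells, with 63, 115 and 42 members holding a Gda UMI and log2 ratios of 4.11, 2.87 and 1.70 without the top cells. Fn1 (fibronectin), Mmp12 and Wfdc17 were not: the member with 38002 UMIs held 91.7%, 77.3% and 82.6% of their UMIs, and with the deepest member of each library left out the log2 ratio of Fn1 was -0.03. The same cell held 58.3% of the UMIs of Ccl9 and 47.4% of those of H2-Aa.

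The largest decreases were those of 2010005H15Rik, Ngp, Egr1, Ly6c2, Slpi, Ltf, Cd177, Ceacam10, Ier3 and Gal. Ngp was found in 47 of 206 untreated members at 2752 CPM and in 10 of 44 Ndrg2-KO members at 180.4 CPM. Its log2 ratio was -3.93 (-4.39 to -3.50). The share of members with a Ngp UMI was thus similar, and the sums differed in the amount per such member. In untreated DCs 17 members, those with Ltf, Camp and Ngp at 0.5% of UMIs or more, held 88.7% of the Ngp UMIs. Only 1 Ndrg2-KO member reached this limit, and it held 54.5%. At equal depth after thinning, 17.6% of untreated and 14.3% of Ndrg2-KO members showed a UMI of Ltf, Camp or Ngp. Ltf was at 482 and 65.6 CPM, a log2 ratio of -2.88 (-3.69 to -2.16), and Camp at 461 and 164 CPM, a log2 ratio of -1.49 (-1.99 to -1.03). Of 11 secondary granule genes 4 were at least 2-fold lower (Ngp, Ltf, Camp and Cd177) and 0 higher, with a median log2 ratio of -0.72, whereas Lcn2, Chil3 and Olfm4 had log2 ratios of -0.45, -0.40 and 0.98. This depended on which cells were counted. When cells with primary granule UMIs were admitted, the log2 ratio was 0.94 for Ngp and 2.996 for Camp, and the 19 Ndrg2-KO cells with S100a8 and S100a9 at 2% or more and a primary granule UMI, with or without a Csf3r or Mmp9 UMI, had Ngp at 8739 CPM and Camp at 6169 CPM, against 1420.5 and 415 CPM in the 171 untreated cells of that kind.

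Slpi differed in the same direction as Ngp but over many cells, at 535 CPM in 164 untreated members and 65.6 CPM in 10 of the Ndrg2-KO members, a log2 ratio of -3.03 (-3.84 to -2.32) against -2.22 in the other cells. At 1000 UMIs it was seen in 48.3%, 53.8% and 11.9% of members and 8.23%, 7.75% and 1.57% of other cells. Of the 5 tertiary granule genes tested 3 were at least 2-fold higher, but only 1 of them neither was used by the rule nor rested on a single cell. The 3 were Mmp9, which the rule had used, Padi4 at 59.6 and 123 CPM, and Retnlg, of which 1 Ndrg2-KO member held 99.1% of the UMIs. Among stefin genes 3 of 8 were at least 2-fold lower, Gm5483, 2010005H15Rik and Stfa1 (Gm5483 had a log2 ratio of 0.059 as a mean of per-cell CPM), with the largest log2 ratio in Stfa1, seen in 7 untreated members and 1 Ndrg2-KO member.

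Immediate early genes, which respond within minutes to stimulation or handling, were lower in the Ndrg2-KO members. Of 6 stress and immediate early genes tested, 4 were at least 2-fold lower and 0 higher, against 6.04% and 3.97% of all genes. The list has 14 genes, of which those low in both groups were not tested and a gene such as Egr1 passed the limit through its untreated counts. Over all 14 the summed level was 1550 CPM in untreated members, against 845 CPM in those of the Ndrg2-KO culture. Egr1 was at 185 CPM in 104 untreated members and 12.3 CPM in 2 Ndrg2-KO members, a log2 ratio of -3.91 (-6.20 to -2.35). Fos, Jun and Junb, which form the AP-1 factors, had log2 ratios of -3.70 (-6.76 to -1.82), -2.95 (-5.25 to -1.36) and -2.07 (-2.75 to -1.45). The other cells of the Ndrg2-KO culture had fewer of them too, with log2 ratios of -1.77, -1.81, -0.76 and -0.91 in the same order, each closer to 0 than in the members. The difference of the members' and the other cells' log2 ratio was -2.14 for Egr1 (-3.78 to -0.495) and -1.16 for Junb (-1.77 to -0.538), whereas for Fos its interval reached past 0 (-3.90 to 0.130). Ier3, a stress-induced survival gene, was seen in 172 of 206 untreated and 17 of 44 Ndrg2-KO members, at 598 and 111 CPM. In VD3 members the same genes were not lower, with Egr1 at 265 CPM, Junb at 483 CPM and Ier3 at 963 CPM.

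Cytokine genes went in both directions. Of 8 tested, 3 were at least 2-fold lower in Ndrg2-KO members, Il1b, Tnf and Cxcl2, and 4 at least 2-fold higher, Il1rn, Ccl6, Ccl9 and Ccl17. Of the higher genes, Ccl9 and Ccl17 were lower when the limit on S100a8 and S100a9 was 5% of UMIs (log2 ratios -0.48 and -1.47). The list has 20 genes, of which those low in both groups were not tested. Tnf and Cxcl2, like Egr1, passed the filter on counts through their untreated UMIs. The untreated members held more UMIs in total, so a low gene that was higher in Ndrg2-KO members was less likely to be tested. Il1b was found in 105 untreated members at 204 CPM and in 8 Ndrg2-KO members at 77.9 CPM, a log2 ratio of -1.39 (-2.15 to -0.71), and Tnf at 105 and 24.6 CPM, a log2 ratio of -2.09 (-3.57 to -0.93). Il1rn, the interleukin 1 receptor antagonist, was at 326 and 701 CPM, a log2 ratio of 1.10 (0.84 to 1.37) against 0.99 in the other cells, and was seen in 38 of 44 Ndrg2-KO members. In the sums over members Il1b was thus lower and Il1rn higher, but Il1b varied with the S100a9 proportion. Members with S100a9 under 20% of the sum were 47.6% of untreated and 13.6% of Ndrg2-KO members. Among those at or over 20% Il1b was at 107 and 77.7 CPM, under 2-fold. The part of this in the Il1b difference was not tested. The Il1b log2 ratio was 0.09 among members with a Csf3r UMI, which were 11 in Ndrg2-KO DCs. Of 17 surface receptors 2 were at least 2-fold lower, Il1r2 at 221 and 82.0 CPM and Csf3r, which was used by the rule.

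None of 6 NADPH oxidase genes, 4 eicosanoid enzymes, 8 glycolysis genes, 8 S100 genes or 5 cell cycle genes reached a 2-fold difference. Of 9 granulocyte transcription factors the lower ones were Junb and Fos, already named, while Cebpe had a log2 ratio of 0.91 (0.36 to 1.44) and Cebpb one of -0.19 (-0.37 to -0.02). Of 10 genes of the GM-CSF receptor and survival list Socs1 alone was at least 2-fold lower, and of 2 interferon response genes Ifitm1. Among markers of other cells, 3 of 6 monocyte and macrophage genes were at least 2-fold higher (Fn1, Mmp12 and Ccr2) and 2 lower (Ly6c2 and Adgre1), and 2 of 4 mature DC genes were higher (Socs2 and Ccl5). Ccl5 was at 613 and 2431 CPM, with a single cell holding 43.2% of the Ndrg2-KO UMIs, and Ccr2 had a log2 ratio of -0.03 without the top cells.

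**Figure D5:**
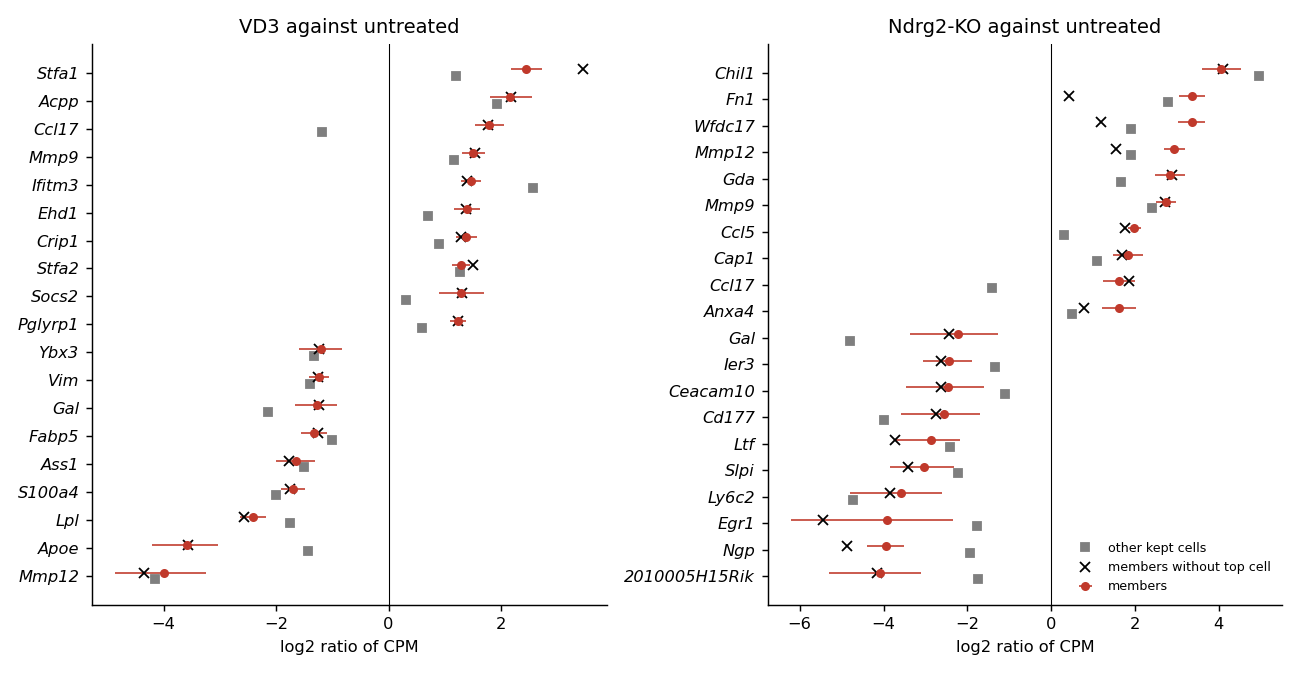
Log2 ratio of CPM (x axis) for genes with the largest increases and decreases among those with at least 200 UMIs in VD3 against untreated members (left) and Ndrg2-KO against untreated members (right), with 95% counting intervals (red). Grey squares give the other kept cells and crosses the members without the cell that holds most of the gene's UMIs in each library; Fn1 in Ndrg2-KO members moves from 3.36 to 0.44.

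Cells that met the same rule in the wounds were far more frequent, at 346 of 1948 kept cells (17.8%), 2031 of 5681 (35.8%) and 1222 of 3403 (35.9%). Their median UMIs were 3604, 3140 and 3526, and their median number of genes was 826, 758 and 881. The wound libraries differ from the cultures in tissue, dissociation and Cell Ranger version, so source and processing cannot be told apart. Among 6934 genes 734 (10.6%) were at least 2-fold higher in every wound library than in every culture, and 2582 (37.2%) at least 2-fold higher in every culture. The culture direction is thus the background for the lists below.

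Cytokines set the wound cells apart. Of 19 genes tested 14 were at least 2-fold higher in every wound than in every culture and 3 lower. Cxcl2, the neutrophil chemoattractant, was at 133, 215 and 20.5 CPM in culture members and 28887, 45726 and 32025 CPM in wound cells. Il1b was at 204, 219.6 and 77.9 CPM in culture members and 6599, 8777 and 6771 CPM in wound cells, and Ccl3 at 74.7, 129.5 and 32.8 and 4027, 6055 and 4959 CPM. The Il1b and Cxcl2 of the culture members were thus far below those of wound cells in all 3 conditions. Of 24 surface receptors 12 were higher in every wound and none in every culture, for example Clec4d, a C-type lectin, at 123, 94.1 and 65.6 CPM in cultures and 3159.5, 2903 and 3017 CPM in wounds, and Cxcr2 at 124, 103 and 123 and 860.3, 469 and 594 CPM. Of 14 stress and immediate early genes 9 were higher in every wound, and of 10 interferon response genes 5.

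Of 11 secondary granule genes 2 were at least 2-fold higher in every culture, Chil3 and Camp, and none in every wound, a smaller share than the 37.2% of all genes. Ngp was at 22.8, 117 and 5.64 CPM in wound cells and Ltf at 8.29, 34.7 and 7.27 CPM, below all 3 cultures, although the Ndrg2-KO members, with Ngp at 180.4 and Ltf at 65.6 CPM, lay within 2-fold of the wound with Ndrg2-KO DCs. For the Ndrg2-KO members this order rests on 1 cell, which held 54.5% of their Ngp UMIs. The others had Ngp at 83.8 and Ltf at 29.3 CPM, below that wound. Chil3 was at 188, 111 and 90.8 CPM in wounds against 8836, 6606 and 6699.7 CPM in cultures. All 6 cell cycle genes were at least 2-fold higher in every culture, Mki67 for example at 82.2, 42.6 and 49.2 CPM in cultures and 6.90, 11.3 and 9.46 CPM in wounds. Of 6 NADPH oxidase genes 4 were, including Cybb (gp91phox) at 805, 625 and 1271 CPM in cultures and 84.2, 129.9 and 77.8 CPM in wounds. Of 6 eicosanoid enzymes 4 were as well, and all 8 mature DC genes. Other lists for other cells went the opposite way. All 4 erythroid genes and all 3 fibroblast and keratinocyte genes tested were at least 2-fold higher in every wound. The lists summed to 6605, 17976 and 7195 CPM and to 1112, 414 and 498 CPM in wound cells, and to 0 in every culture. The part of transcripts from other cells in these differences was not tested. Lcn2 and Slpi went in opposite directions, Lcn2 at 1389.9, 911 and 1145 CPM in wounds below every culture and Slpi at 5104, 4988 and 4776 CPM above every culture. Among the wound cells, 0, 2 and 0 reached the limit of 0.5% of UMIs from Ltf, Camp and Ngp. The reporters eGFP and tdTomato, listed in the wound tables, had 0 UMIs in all 3 wounds, so members from delivered cells were not distinguished there.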

How the data were processed

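Single cells of 3 DC cultures and 3 wounds were measured with 10X Genomics 3′ chemistry. The authors deposited a matrix of UMI counts per gene and barcode for each library, unnormalised, made with Cell Ranger 3.1.0 (cultures) or 6.0.0 (wounds) per the file headers. The submitters' processing notes also name Seurat 3.1.1 and mm9, whereas the study's methods name mm10, and symbols are used as deposited. Barcodes were kept with 300 genes or more, fewer than 100000 UMIs and less than 10% mitochondrial UMIs. The rule for members, the gene lists and the limits were chosen with earlier results of these data known.

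UMIs were summed over members, scaled to 1000000 and compared as log2 ratios with exact conditional binomial intervals; shares have Clopper-Pearson intervals, and both cover counting error only. With 1 library per condition no test was made. A gene counted as higher or lower at a 2-fold difference with at least 100 UMIs in both sums together (members against other cells: over the members of the 3 cultures; wounds against cultures: over the members of all 6 libraries). A gene with 0 UMIs was set to 3 UMIs for a bound. Named genes were those of 26 lists with 234 genes, the 10 largest increases and 10 largest decreases of each comparison and the 15 leading genes, each with at least 200 UMIs. Scrublet's automatic threshold marked 0.0138%, 0% and 0.0125% of cells in untreated, VD3 and Ndrg2-KO DCs, so it had not worked, and leaving out the highest 6% of scores was an alternative. A few of the genes are not reported here. Thinning drew UMIs without replacement with a fixed seed. Alternatives changed the cell filter, the rule, scaling, the weight of cells and the filter on counts. Python 3.11.15, NumPy 2.4.6, pandas 2.3.3, SciPy 1.17.1 and scanpy 1.11.5 were used, and the comparison script was tested on simulated data.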

Additional observations from a re-analysis of the deposited data

Results flagged for a closer look

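Of the genes with at least 100 UMIs in the members, 3 moved 2-fold or more one way in the neutrophil-like cells and 2-fold or more the other way in the other cells of the same cultures, in 4 instances. Each compares 1 library with 1 library, so the difference between members and other cells was not tested, and the intervals cover counting error only.

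Ccl17, a chemokine gene of mature DCs, had a log2 ratio of VD3 to untreated of 1.79 in members and -1.18 in other cells, a difference of 2.97 (2.72 to 3.23). For Ndrg2-KO against untreated DCs the values were 1.63 and -1.41, a difference of 3.04 (2.67 to 3.40). Without the cell holding most Ccl17 UMIs in each library the members' log2 ratios were 1.78 and 1.86, but the direction turned at a limit of 1% on S100a8 and S100a9 in both comparisons and at 5% for Ndrg2-KO.

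Nov, which encodes a secreted matricellular protein, was at 78.9 CPM in untreated members, 178 CPM in VD3 members and, in the other cells of the same cultures, at 30.6 and 7.16 CPM. The log2 ratios were 1.17 and -2.10, a difference of 3.27 (2.90 to 3.63), and 1.18 in members without the top cells.

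G0s2, an inhibitor of triglyceride lipase, was at 79.7 CPM in untreated members, 172 CPM in Ndrg2-KO members and, in the other cells of these cultures, at 9.54 and 2.32 CPM. The log2 ratios were 1.11 and -2.04, a difference of 3.15 (2.60 to 3.71). Without the top cells the members' log2 ratio was 0.80, under 2-fold. The genes Nov and G0s2 lie outside the fixed lists and were chosen after their values were seen.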

How the results depend on the processing

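No paired analysis was possible because each condition is 1 library and no test was made. With 1 library per condition no replicate could be left out, and depth limits the 44 Ndrg2-KO members most. The cause of the following shifts was not tested. Ndrg2-KO DCs had the lowest share under each alternative below, whereas untreated and VD3 DCs changed places at an S100 limit of 1% and after thinning. The member share of untreated, VD3 and Ndrg2-KO DCs was 4.83%, 4.56% and 1.28% with under 5% mitochondrial UMIs. It was 3.87%, 3.95% and 0.753% with the S100 limit at 1% and 1.76%, 1.47% and 0.326% with it at 5%. With a Csf3r UMI required, an alternative chosen after seeing the data as were those leaving out single cells, it was 1.998%, 1.05% and 0.138%. Thinned to 500 UMIs it was 1.05%, 1.19% and 0.389%, and at 1000 UMIs 1.54% and 1.77% in untreated and VD3 DCs. With no receptor UMI required it was 5.95%, 5.73% and 0.602%, and with primary granule UMIs allowed 3.44% in untreated and 0.765% in Ndrg2-KO DCs.

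Genes at least 2-fold higher and lower in VD3 members numbered 25 and 17 with under 5% mitochondrial UMIs, 100 and 138 with no receptor UMI required, and 132 and 180 with primary granule UMIs allowed. They numbered 97 and 106 at 50 UMIs or more, 22 and 21 at 200 or more, and 1524 and 1847 with no filter, and 71 were lower at an S100 limit of 1%. In Ndrg2-KO members they numbered 238 and 425 with no receptor UMI required, 192 and 276 with primary granule UMIs allowed, and 127 and 217 as means of per-cell CPM. They numbered 199 and 279 at 50 UMIs or more, 35 and 48 at 200 or more, 2006 and 3055 with no filter, and 37 and 209 without the top cell of each gene. Higher genes numbered 30 with under 5% mitochondrial UMIs and 48 at an S100 limit of 5%, and 250 were lower with a Csf3r UMI required.

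Single genes turned direction in 27 instances, none by scaling. In VD3 members the log2 ratio became -0.63 for Ccl17 and -0.46 for H2-Ab1 with under 5% mitochondrial UMIs, and -1.54 and -1.51 at an S100 limit of 1%. H2-Ab1 was at -0.83 and Ccl5 at 0.65 with no receptor UMI required, H2-Ab1 at -0.37 with a Csf3r UMI required, and Stfa1 at -0.26 with primary granule UMIs allowed. In Ndrg2-KO members Camp was at 2.996 and Ngp at 0.94 with primary granule UMIs allowed. Ccl17 was at -1.08 and -1.47 at S100 limits of 1% and 5%, and at -0.15 with no receptor UMI required. At the limit of 5% Ccl9 was at -0.48 and Crip1 at -0.996. Crip1 was at -0.90 with under 5% mitochondrial UMIs and -0.12 without its top cells. Ccr2 was at -0.18 without the highest doublet scores and also without the deepest member, -0.68 with a Csf3r UMI required and -0.033 without its top cells. Fn1 was at -0.031 without the highest doublet scores and -0.032 without the deepest member. Csf3r itself was at 0.056 with no receptor UMI and 0.36 with a Csf3r UMI required, Il1b at 0.087 with the latter, and Gm5483 at 0.059 as a mean of per-cell CPM. Of the remaining values 58 shares and counts and 791 gene ratios stayed close to the reported ones, and 253 gene ratios moved without turning direction.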

Other observations

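The cells with S100a8 and S100a9 at 2% or more of UMIs that did not qualify as neutrophil-like were of 2 kinds. Those with a UMI of Elane, Prtn3 or Mpo were deep, with median UMIs of 23109, 17326.5 and 8860 in untreated, VD3 and Ndrg2-KO DCs. They had more of the promyelocyte gene Ms4a3 than the members, at 955, 261 and 173 CPM. The cell cycle gene Top2a was at 356, 374 and 346 CPM in them, and the receptor gene Fpr1 at 8.88, 3.91 and 54.8 CPM. The stefin gene Stfa1 was highest in these cells, at 944, 1911 and 42.1 CPM, and lowest in the Ndrg2-KO culture, as it was among the members.

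Cells with neither such a UMI nor one of Csf3r or Mmp9 numbered 226 in untreated, 259 in VD3 and 4 in Ndrg2-KO DCs. Their Cxcr2 was at 56.9 and 24.7 CPM in untreated and VD3 DCs, below the members, and their Stmn1 at 396 and 449 CPM, above the members. Among the eicosanoid genes of the members, Alox5ap, which presents arachidonic acid to 5-lipoxygenase, was at 655, 785 and 804 CPM in 186, 214 and 40 members, against 302, 248 and 324 CPM in the other cells. Its log2 ratio to untreated members was 0.26 (0.12 to 0.40) in VD3 and 0.29 (0.06 to 0.52) in Ndrg2-KO members, under 2-fold in both.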
